A study of Mus musculus with 6 samples.

Results

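The voltage-gated and potassium channel genes are the pore-forming and accessory subunits of the membrane channels that shape the electrical activity of a cell. They were taken as every protein-coding gene in the count table whose mouse symbol begins with Kcn or Cacn, is Scn followed by a number and a or b, or is Hcn with a number. This gave 138 of 38561 genes. The tissue was the vomeronasal organ, the pheromone-sensing organ of the nose, from males of the outbred CD-1 stock. An antibody against phosphorylated ribosomal protein S6 was used to pull down ribosomes, and the RNA they carried was sequenced. There were 3 libraries after exposure to pups and 3 after a control exposure that the labels do not describe; every library is of the same stock, sex and tissue, and no age, housing or number of pooled animals is given. The labels do not say whether each library is a different animal, and the p-values below therefore reflect only library-to-library spread, some or all of which may be technical.

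In a vomeronasal sensory neuron, pheromone receptors open a cation current, and voltage-gated sodium and calcium channels turn it into action potentials. Potassium channels bring the membrane back to rest, set how regularly the cell fires and limit how long a response lasts. Calcium-activated potassium channels and HCN channels, which open on hyperpolarisation, act on the interval between spikes. Phosphorylation of S6 rises in recently active neurons, so the pull-down is meant to favour their RNA, yet RNA of every other cell type of the organ can also be present. How far it did so was not checked here, for want of a library of RNA from before the pull-down.

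No channel gene passed an adjusted p of 0.05, and the smallest p belonged to a calcium-activated potassium channel. Kcnn3, the SK3 channel that couples calcium entry to the pause after a spike, had 0.697, 2.23 and 7.52 CPM after pup exposure, against 26.02, 65.9 and 15.6 CPM after control exposure. Every pup exposure library lay below every control exposure library, although control exposure replicate 3 and pup exposure replicate 3 came closest. Kcnmb1, the beta1 accessory subunit of the large-conductance BK channel and best known in smooth muscle, had 13.2, 7.12 and 16.02 CPM after pup exposure, against 43.2, 34.4 and 32.2 CPM after control exposure, again with no overlap. On the other side, Scn7a, an atypical sodium channel that senses extracellular sodium in glia, and Kcnk3, the acid-sensitive background potassium channel TASK-1, had higher mean values after pup exposure. The groups did not overlap in Scn7a, but in Kcnk3 control exposure replicate 3 lay slightly above pup exposure replicate 3. These levels are in CPM, read counts relative to library size after TMM scaling, which compare libraries for 1 gene; levels of different genes are compared only as CPM per kb of exon.

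Across the whole table, 15498 genes had enough counts to be tested and 83 of them were channel genes. The test was edgeR's quasi-likelihood test with Benjamini-Hochberg adjustment over all genes tested and a threshold of 0.05. At that threshold 0 channel genes were higher and 0 lower, against 0% of all genes in either direction, and the smallest adjusted p of a channel gene was 0.375 in edgeR. DESeq2 called 0 higher and 2 lower (Kcnn3 and Kcnmb1), against 0.406% and 0.626% of all genes with an adjusted p there. limma-voom called 0 channel genes in either direction, against 0.00645% of all genes higher and 0.0452% lower. At an edgeR unadjusted p under 0.05, 10 of the 83 tested channel genes were higher (12%, against 6.31% of all genes) and 2 lower (2.41%, against 4.67%). In 9 members all pup exposure libraries lay above all control exposure libraries, which is 10.8% of those tested beside 10.1% of all genes. In 4 members they lay below, 4.82% beside 9.6%, so the share with pup exposure above was near the background.

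The count of 10 higher genes changed with the library left out, and so did the share of all genes. Leaving out pup exposure replicate 2 gave 6 of the 83 channel genes tested in that fit, against 3% of all genes. Without control exposure replicate 1 it was 6 of 91, against 4.03%, and without control exposure replicate 3 it was 4 of 91, against 4.63%. It also fell without pup exposure replicate 1 (86 tested, against 7.4% of all genes). The count was again 10 without pup exposure replicate 3 (83 tested, against 6.53%) and without control exposure replicate 2 (89 tested, against 4.42%), although not all were the same genes. limma-voom gave 6 of 83 higher, against 5.1% of all genes, and 4 lower, against 5.43%. DESeq2, fitted to every channel gene with a count (131), gave 12 higher, against 4.85%, and 4 lower, against 4.69%. The count of lower genes stayed between 2 and 3 when single libraries were left out. Kcnn3, Kcnmb1, Scn7a and Kcnk3 were at an unadjusted p under 0.05 in each of the 15 alternative settings tried.

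**Figure D1:**
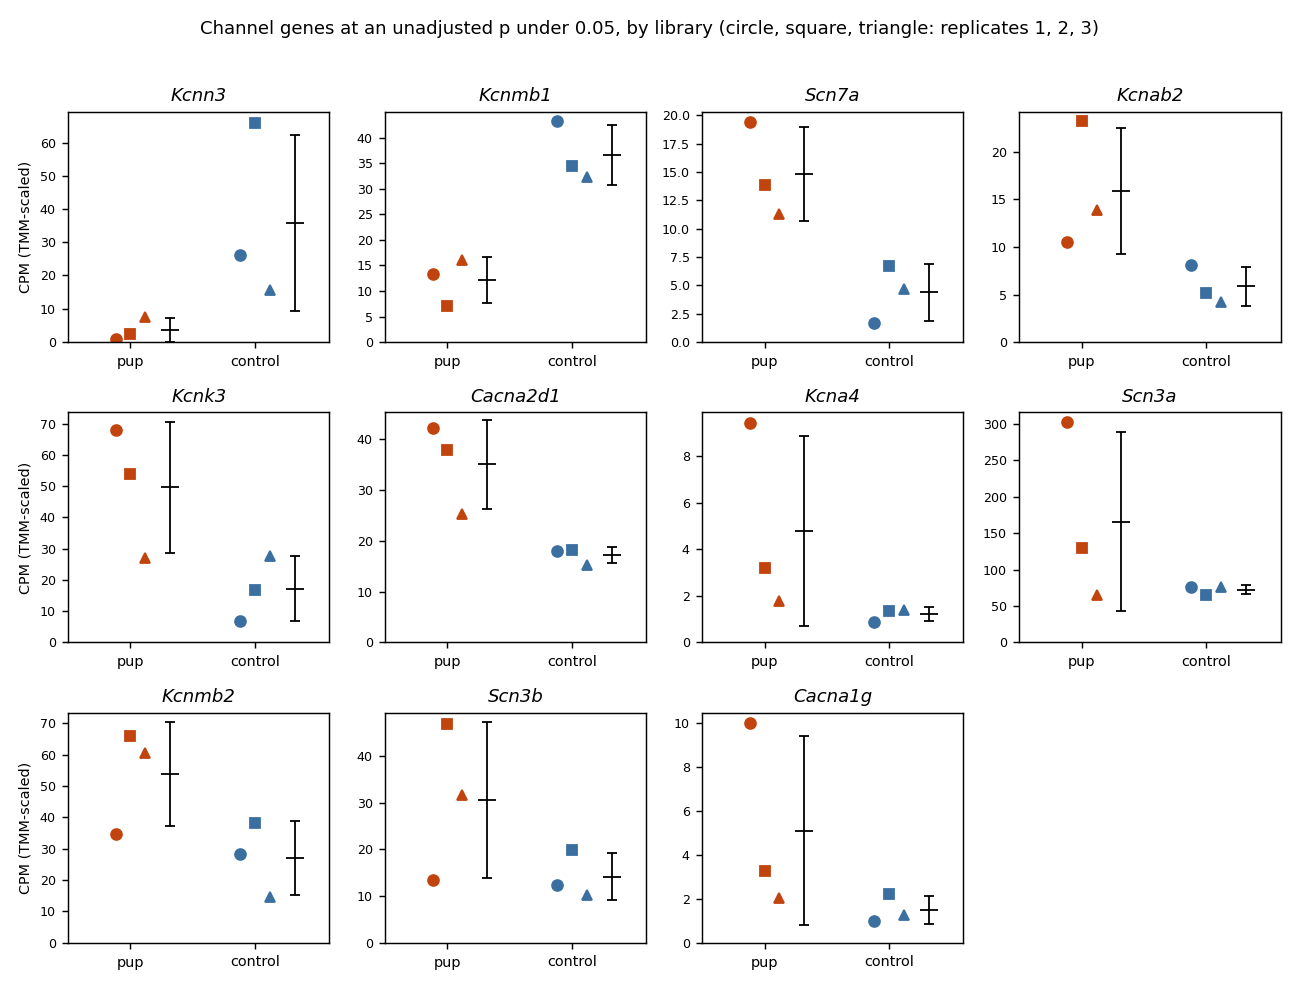
TMM-scaled CPM of 11 of the 12 channel genes at an edgeR unadjusted p under 0.05, with pup exposure at the left and control exposure at the right of each panel. Points are libraries (circle, square and triangle for replicates 1, 2 and 3) and the black bars the mean and SD of 3 libraries; Kcnn3 and Kcnmb1 are lower after pup exposure and the groups do not overlap in 6 of the 11 panels.

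The regions around the start sites of the genes with the smallest p among those whose groups did not overlap are shown, a pair for each direction, because they are the sequence next to the differences in level. Each runs from 250 bases before the RefSeq start to 50 after it on GRCm38.p6, read on the gene's own strand. Kcnn3 is at chr3:89519914-89520213, plus strand, Kcnmb1 at chr11:33962763-33963062, plus strand, Scn7a at chr2:66784861-66785160, minus strand and Kcnab2 at chr4:152477500-152477799, minus strand. Capitals mark matches, on either strand, to TGACG (the core of the cAMP response element TGACGTCA, which contains it), the TATA box letters TATAAA, the E-box letters CAGCTG or the CArG box of serum response factor.
Kcnn3: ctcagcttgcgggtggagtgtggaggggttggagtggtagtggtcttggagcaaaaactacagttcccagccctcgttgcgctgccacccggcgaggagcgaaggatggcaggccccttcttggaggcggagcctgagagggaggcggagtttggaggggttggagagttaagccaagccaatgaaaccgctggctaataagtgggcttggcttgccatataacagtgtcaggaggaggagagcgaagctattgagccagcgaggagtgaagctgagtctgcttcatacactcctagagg
Kcnmb1: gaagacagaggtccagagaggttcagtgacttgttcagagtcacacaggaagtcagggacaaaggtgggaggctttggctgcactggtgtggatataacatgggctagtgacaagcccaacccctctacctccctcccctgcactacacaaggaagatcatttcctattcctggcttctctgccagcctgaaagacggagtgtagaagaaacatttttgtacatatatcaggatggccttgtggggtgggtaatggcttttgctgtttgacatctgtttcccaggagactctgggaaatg
Scn7a: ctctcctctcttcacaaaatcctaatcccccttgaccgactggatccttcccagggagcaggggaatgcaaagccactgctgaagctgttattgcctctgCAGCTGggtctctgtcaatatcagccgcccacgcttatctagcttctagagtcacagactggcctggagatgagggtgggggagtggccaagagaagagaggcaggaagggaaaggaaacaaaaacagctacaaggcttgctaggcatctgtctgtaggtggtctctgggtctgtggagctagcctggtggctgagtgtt
Kcnab2: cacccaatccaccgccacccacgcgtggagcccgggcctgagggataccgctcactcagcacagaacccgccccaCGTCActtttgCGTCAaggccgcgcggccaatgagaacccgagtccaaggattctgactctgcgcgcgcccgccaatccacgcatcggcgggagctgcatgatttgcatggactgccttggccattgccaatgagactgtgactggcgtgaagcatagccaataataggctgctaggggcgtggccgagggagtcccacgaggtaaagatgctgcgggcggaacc
The windows of Kcnn3 and Kcnmb1 hold none of these letters, Scn7a holds 1 CAGCTG and Kcnab2 holds 2 TGACG. They also differ in CpG content, with 11 CpG pairs in Kcnn3, 1 in Kcnmb1, 3 in Scn7a and 25 in Kcnab2. The median was 10 per window for channel genes, beside 7 for all promoters. RefSeq gave a window for 101 channel genes. For these the start nearest the annotated start of the gene was taken, but for other genes the first listed start. The shares below are therefore not strictly like for like. Of these, 22.8% held TGACG, against 21% of 27025 promoters of the same length, 26.7% held CAGCTG, against 16.1%, and 3.96% held TATAAA, against 14.2%. The full TGACGTCA was in 0 of the 101, against 1.88% of all promoters, and the CArG box in 0, against 1.57%. These shares describe letters and say nothing of binding.

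Sodium channel alpha subunits form the pore that carries the upstroke of the action potential. Their summed level was 196 to 555 CPM after pup exposure and 191 to 417 CPM after control exposure, with overlapping groups. Scn9a (Nav1.7) is the main sodium channel of olfactory sensory neurons and pain fibres, and Scn3a (Nav1.3) is typical of immature and injured neurons; they had the highest levels of the class per kb. Scn9a averaged 11.6 ± 3.99 CPM per kb after pup exposure and 14.1 ± 8.34 CPM per kb after control exposure (SD, n = 3 each). Scn3a averaged 13.3 ± 9.86 CPM per kb after pup exposure and 5.82 ± 0.525 CPM per kb after control exposure (SD, n = 3 each).

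Scn3a was at 303, 130.02 and 65.4 CPM after pup exposure, against 76.8, 65.0 and 75.8 CPM after control exposure (log2 fold change 1.20, SE 0.51, edgeR unadjusted p = 0.0365, adjusted p = 0.447). Only pup exposure replicates 1 and 2 lay above the control exposure range, and without pup exposure replicate 1 the log2 fold change was 0.43. Scn9a was at 171, 183 and 89.5 CPM after pup exposure, against 294.97, 159 and 85.2 CPM after control exposure (log2 fold change -0.28, SE 0.49, edgeR adjusted p = 0.844), with its highest value in control exposure replicate 1; without that library its log2 fold change was 0.28. Scn7a was at 19.4, 13.8 and 11.3 CPM after pup exposure, against 1.72, 6.72 and 4.69 CPM after control exposure (log2 fold change 1.77, SE 0.55, edgeR unadjusted p = 0.00761, adjusted p = 0.405), from 362, 391 and 229 reads after pup exposure and 22, 75 and 30 reads after control exposure. No value after pup exposure reached down to a control value. Scn2a (Nav1.2), a channel of axons and their initial segment, had 12.6, 13.2 and 9.44 CPM after pup exposure, against 9.17, 7.71 and 7.97 CPM after control exposure; the groups did not overlap but lay close together (log2 fold change 0.50, SE 0.42, edgeR adjusted p = 0.648).

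These genes lie in 1 cluster on chromosome 2 of GRCm38, in the order Scn3a (65457118 to 65567627), Scn2a (65620771 to 65767447), Scn1a (66270778 to 66440840), Scn9a (66480080 to 66634962) and Scn7a (66673425 to 66784914) in GENCODE M21. Along the cluster the log2 fold changes were 1.20 in Scn3a, 0.50 in Scn2a, -0.28 in Scn9a and 1.77 in Scn7a. Scn1a (Nav1.1), the channel of fast-spiking interneurons, had 3 reads in all 6 libraries and was not tested. Scn10a and Scn4a, channels of pain neurons and skeletal muscle, were likewise too low to test, with 1 and 8 reads. Scn8a (Nav1.6), the channel of mature nodes and initial segments, had 37.5, 37.0 and 12.8 CPM after pup exposure, against 29.4, 19.4 and 11.9 CPM after control exposure. The groups overlapped.

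Sodium channel beta subunits tune the gating and surface level of the pore. Scn3b had 13.4, 46.8 and 31.6 CPM after pup exposure, against 12.3, 19.8 and 10.3 CPM after control exposure (log2 fold change 1.11, SE 0.49, edgeR unadjusted p = 0.0441, adjusted p = 0.447). Pup exposure replicate 1 fell within the control exposure range while the other pup libraries were above it. Scn2b had 2.36, 2.69 and 1.83 CPM after pup exposure, against 1.02, 1.08 and 1.09 CPM after control exposure, apart but at low level (log2 fold change 1.11, SE 0.86, edgeR adjusted p = 0.626). Scn4b was the only beta subunit with a negative log2 fold change (log2 fold change -0.68, SE 0.80, edgeR adjusted p = 0.756).

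Calcium channel alpha1 subunits admit the calcium that triggers transmitter release and drives calcium-activated channels. All 6 tested members had a positive log2 fold change, as had 51.5% of all genes, and 1 was at an unadjusted p under 0.05. That gene was Cacna1g, the low-threshold T-type channel Cav3.1, with 10.03, 3.29 and 2.03 CPM after pup exposure, against 1.02, 2.24 and 1.25 CPM after control exposure; the groups overlapped (log2 fold change 1.76, SE 0.80, edgeR unadjusted p = 0.0498, adjusted p = 0.454), and the log2 fold change was 0.82 without pup exposure replicate 1. Cacna1c, the L-type channel Cav1.2, had 5.04, 7.51 and 4.45 CPM after pup exposure, against 1.02, 4.30 and 1.09 CPM after control exposure, with the lowest pup library just above the highest control library (log2 fold change 1.39, SE 0.73, edgeR adjusted p = 0.502). Without control exposure replicate 2, the highest control, its log2 fold change was 2.42. The most abundant per kb were Cacna1b, the N-type channel of nerve terminals, and Cacna1h, the T-type channel Cav3.2. Cacna1b averaged 2.70 ± 1.67 CPM per kb after pup exposure and 2.10 ± 0.844 CPM per kb after control exposure (SD, n = 3 each). Cacna1h averaged 1.47 ± 0.627 CPM per kb after pup exposure and 1.45 ± 0.241 CPM per kb after control exposure (SD, n = 3 each), and its log2 fold change of 0.017 was negative in 8 of 15 alternatives. Cacna1d, the L-type channel Cav1.3, had 10.7, 9.21 and 4.05 CPM after pup exposure, against 5.96, 6.10 and 3.28 CPM after control exposure, with overlap. Cacna1e, Cacna1f, Cacna1i and Cacna1s each had at most 14 reads over the 6 libraries and were not tested.

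Auxiliary subunits bring the pore to the membrane. Cacna2d1, the alpha2delta subunit bound by gabapentin, had 42.1, 37.8 and 25.2 CPM after pup exposure, against 18.0, 18.2 and 15.3 CPM after control exposure (log2 fold change 1.03, SE 0.37, edgeR unadjusted p = 0.0173, adjusted p = 0.424). The control libraries lay within a narrow band and every pup library was above it. Removing the dependence of each library on exon length, described below, left a log2 fold change of 0.58. Cacnb2, a cytoplasmic beta subunit, had 12.2, 10.2 and 4.45 CPM after pup exposure, against 17.0, 13.6 and 23.3 CPM after control exposure, with every pup library lower (log2 fold change -1.002, SE 0.48, edgeR unadjusted p = 0.0578, adjusted p = 0.465). Cacnb3, the beta subunit with the highest level per kb here, averaged 16.9 ± 3.46 CPM per kb after pup exposure and 17.7 ± 5.56 CPM per kb after control exposure (SD, n = 3 each); its log2 fold change of -0.071 was positive in 4 of 15 alternatives. Of the gamma subunits, most of which are partners of glutamate receptors, only Cacng2 and Cacng4 were tested, both with overlapping groups.

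HCN channels carry the depolarising current after hyperpolarisation. Hcn4, the slow pacemaker form, had 4.45, 3.90 and 2.32 CPM after pup exposure, against 5.25, 8.70 and 5.0 CPM after control exposure, with every pup library lower (log2 fold change -0.83, SE 0.58, edgeR unadjusted p = 0.178, adjusted p = 0.592). Hcn2 and Hcn3 were too low to test, with 63 and 78 reads in all.

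**Figure D2:**
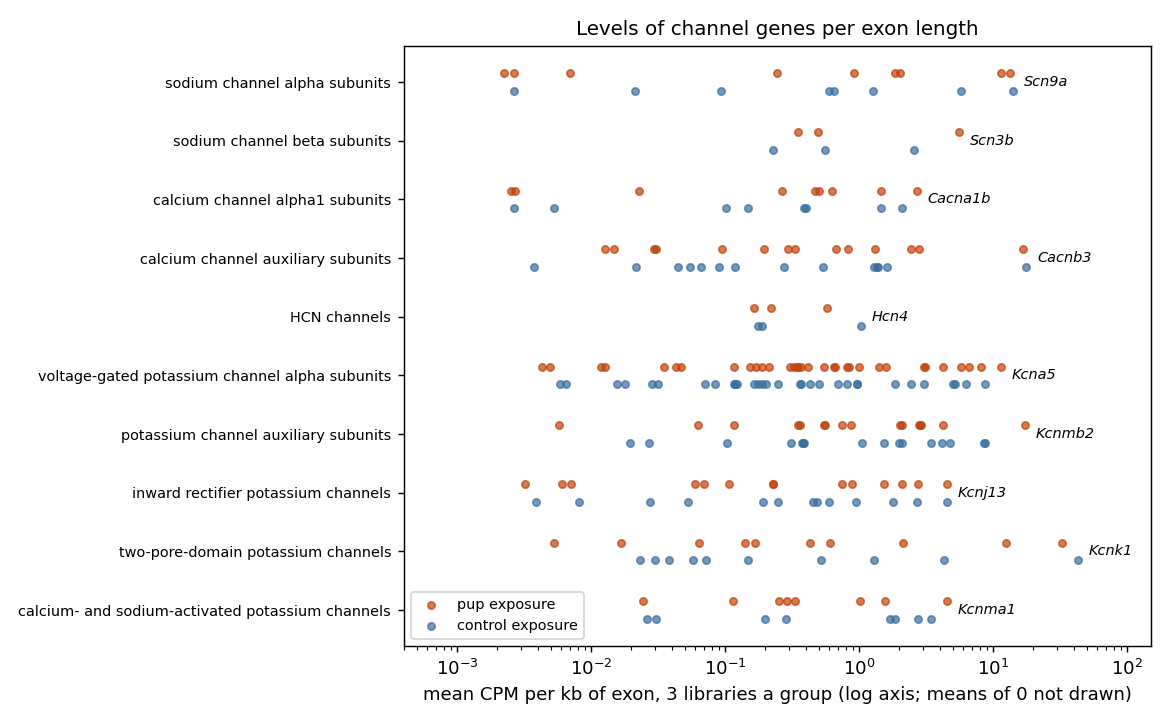
Mean CPM per kb of exon for channel genes by class, on a log axis, in pup exposure (orange, upper) and control exposure libraries (blue, lower), 3 libraries a group; the gene with the highest mean over all libraries in each class is named. Kcnk1 is the highest, at 32.8 CPM per kb after pup exposure and 43.2 CPM per kb after control exposure.

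Voltage-gated potassium channel alpha subunits repolarise the membrane. They were the largest class, with 40 members of which 25 were tested. Kcna4, the inactivating A-type channel Kv1.4, was the 1 member at an unadjusted p under 0.05, with 9.44, 3.19 and 1.78 CPM after pup exposure, against 0.862, 1.34 and 1.41 CPM after control exposure (log2 fold change 2.00, SE 0.83, edgeR unadjusted p = 0.0330, adjusted p = 0.446). The groups did not overlap, but the high value was in pup exposure replicate 1, without which the log2 fold change was 1.05. Kcna5 (Kv1.5) and Kcnq1 (KvLQT1, a channel of cardiac muscle and secretory epithelia) had the highest levels per kb. Kcna5 averaged 11.4 ± 3.41 CPM per kb after pup exposure and 6.27 ± 4.01 CPM per kb after control exposure (SD, n = 3 each). Kcnq1 averaged 8.10 ± 2.80 CPM per kb after pup exposure and 8.75 ± 0.983 CPM per kb after control exposure (SD, n = 3 each), and its log2 fold change of -0.11 was positive in 2 of 15 alternatives.

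The ether-à-go-go-related (ERG) channels, which slow firing and have been studied in basal vomeronasal neurons, differed in level. Kcnh2 (ERG1) had 4.13, 2.30 and 3.02 CPM after pup exposure, against 0.0784, 1.61 and 0 CPM after control exposure, from 77, 65 and 61 reads after pup exposure and 1, 18 and 0 reads after control exposure; the groups did not overlap (log2 fold change 2.42, SE 1.23, edgeR unadjusted p = 0.0731, adjusted p = 0.489). Its unadjusted p was under 0.05 in 5 of 15 alternatives. Without control exposure replicate 2, which held nearly all control reads, the fitted log2 fold change was 5.79. Kcnh6 (ERG2) had the highest level of the 3 per kb, averaging 5.80 ± 1.91 CPM per kb after pup exposure and 5.21 ± 2.07 CPM per kb after control exposure (SD, n = 3 each). Its values overlapped (log2 fold change 0.15, SE 0.45, edgeR adjusted p = 0.913). Kcnh7 (ERG3) had 0.214, 14.4 and 10.3 CPM after pup exposure, against 3.06, 7.98 and 8.59 CPM after control exposure, with pup exposure replicate 1 far below the other libraries.

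Accessory potassium channel subunits had differences of both signs. Kcnab2, a cytoplasmic beta subunit that speeds inactivation and transport of Kv1 channels, had 10.5, 23.2 and 13.9 CPM after pup exposure, against 8.15, 5.20 and 4.22 CPM after control exposure (log2 fold change 1.43, SE 0.49, edgeR unadjusted p = 0.0123, adjusted p = 0.424), with every pup library higher. Kcne3, a partner of Kcnq1 in epithelia, had 0, 1.098 and 3.56 CPM after pup exposure, against 9.88, 2.24 and 6.41 CPM after control exposure; control exposure replicate 2 lay within the pup range (log2 fold change -1.99, SE 1.14, edgeR unadjusted p = 0.108, adjusted p = 0.524). Its log2 fold change was -3.43 with pup exposure replicate 3 left out, or -1.41 if replicate 1 was, and its unadjusted p was under 0.05 in 4 of 15 alternatives. Kcnip3, a calcium sensor that binds A-type channels and can act as a transcriptional repressor, had 1.02, 2.83 and 4.05 CPM after pup exposure, against 8.39, 2.87 and 5.16 CPM after control exposure, with overlap (log2 fold change -1.05, SE 0.72, edgeR adjusted p = 0.585).

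BK channels open on depolarisation together with calcium, and their accessory subunits set how much calcium is needed. Kcnma1, the only BK pore gene, had 109, 78.7 and 44.4 CPM after pup exposure, against 29.5, 54.0 and 56.9 CPM after control exposure, with overlap (log2 fold change 0.73, SE 0.43, edgeR adjusted p = 0.531). Kcnmb1 averaged 12.1 ± 4.55 CPM after pup exposure and 36.6 ± 5.81 CPM after control exposure (SD, n = 3 each), a fold of 0.331 (log2 fold change -1.60, SE 0.41, edgeR unadjusted p = 0.00235, adjusted p = 0.378). Its log2 fold change ran from -1.85 to -1.31 with single libraries left out. DESeq2 called it (adjusted p = 0.0349, within a range of 0.0349 to 0.831 over the alternatives).

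Kcnmb2, the inactivating beta2 subunit, pointed the other way, with 34.7, 66.0 and 60.7 CPM after pup exposure, against 28.4, 38.1 and 14.5 CPM after control exposure (log2 fold change 0.99, SE 0.43, edgeR unadjusted p = 0.0410, adjusted p = 0.447). Only pup exposure replicate 1 fell within the control range. Kcnmb3 had 3.00, 5.49 and 5.93 CPM after pup exposure, against 12.3, 7.89 and 4.38 CPM after control exposure, with overlap. Kcnmb4, the beta4 subunit of central neurons, had 19 reads over all libraries and was not tested. Lrrc26, a gamma subunit of BK channels in secretory epithelia that lies outside the symbol rule, had 161, 61.5 and 107 CPM after pup exposure, against 211, 147 and 186 CPM after control exposure, also overlapping (log2 fold change -0.72, SE 0.42, edgeR adjusted p = 0.528).

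**Figure D3:**
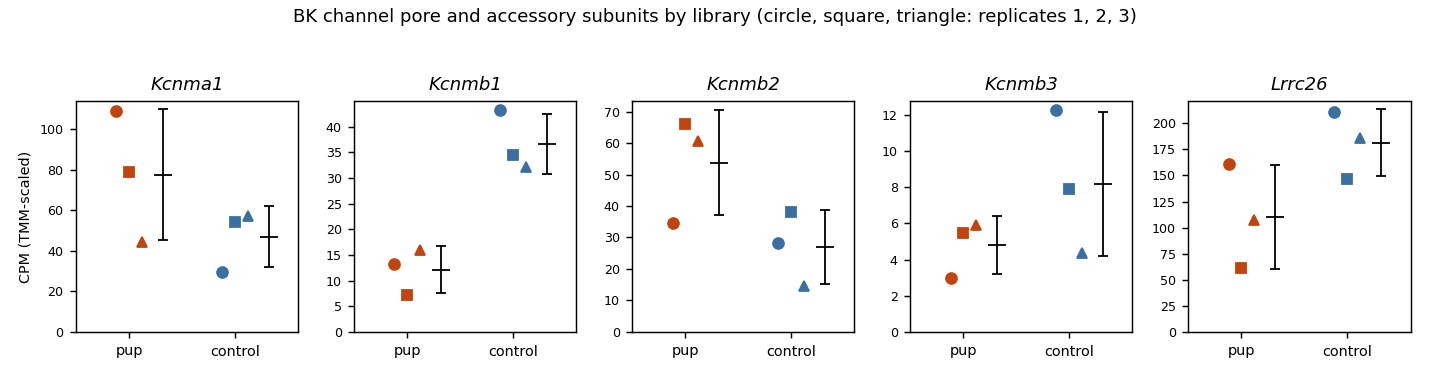
TMM-scaled CPM of the BK pore gene Kcnma1, its beta subunits Kcnmb1, Kcnmb2 and Kcnmb3, and the gamma subunit Lrrc26, with pup exposure at the left and control exposure at the right of each panel. Points are libraries and black bars the mean and SD of 3; of the 5 genes only Kcnmb1 has no overlap between groups, with all pup exposure libraries between 7.12 and 16.02 CPM.

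SK channels respond to calcium alone. Kcnn3 lies on chromosome 3 from 89520164 to 89675132 (plus strand) of GRCm38 in GENCODE M21 and Kcnmb1 on chromosome 11 from 33963013 to 33973641 (plus strand). Kcnn3 averaged 3.48 ± 3.58 CPM after pup exposure and 35.9 ± 26.5 CPM after control exposure (SD, n = 3 each), a fold of 0.0971 (log2 fold change -3.37, SE 0.80, edgeR unadjusted p = 0.00122, adjusted p = 0.375), from 13, 63 and 152 reads after pup exposure and 332, 735 and 100 reads after control exposure. The control libraries themselves spread widely, and with single libraries left out the log2 fold change ran from -4.59 to -2.62. DESeq2 called it (adjusted p = 0.00109), as did edgeR without a filter on low counts (adjusted p = 4.23e-07, a fit that called 0.247% of all genes lower), within a range of 4.23e-07 to 0.831 over the alternatives. Among its relatives, Kcnn1 (SK1) had 4.66, 6.41 and 10.5 CPM after pup exposure, against 6.66, 10.4 and 8.44 CPM after control exposure, and Kcnn2 (SK2) a log2 fold change of -0.19. Kcnn4, the intermediate-conductance channel of blood cells and epithelia, had 4.08, 2.02 and 9.44 CPM after pup exposure, against 6.90, 5.02 and 14.4 CPM after control exposure. In these 3 genes the groups overlapped.

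K2P channels carry the resting potassium leak. Kcnk3 had 68.0, 53.8 and 26.9 CPM after pup exposure, against 6.82, 16.9 and 27.7 CPM after control exposure (log2 fold change 1.54, SE 0.52, edgeR unadjusted p = 0.0126, adjusted p = 0.424), from 1268, 1520 and 545 reads after pup exposure and 87, 189 and 177 reads after control exposure. Control exposure replicate 3 was slightly above pup exposure replicate 3, so the groups overlapped at that point. Its log2 fold change ran from 1.16 to 2.03 with single libraries left out. Kcnk1 (TWIK-1), the most abundant channel gene per kb, averaged 32.8 ± 8.10 CPM per kb after pup exposure and 43.2 ± 4.78 CPM per kb after control exposure (SD, n = 3 each), with overlap (log2 fold change -0.40, SE 0.36, edgeR adjusted p = 0.675). Kcnk9, Kcnk16 and Kcnk18 had no read in any library.

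Inward rectifiers hold the membrane near the potassium equilibrium. None was at an unadjusted p under 0.05. Kcnj2 (Kir2.1) had 17.1, 33.4 and 23.3 CPM after pup exposure, against 21.2, 14.4 and 8.44 CPM after control exposure, with overlap (log2 fold change 0.74, SE 0.45, edgeR adjusted p = 0.547). Kcnj13 (Kir7.1), a channel of transporting epithelia, had 5.90, 2.73 and 1.93 CPM after pup exposure, against 6.82, 3.05 and 7.34 CPM after control exposure; 49.1% of its exon bases lie within exons of Gigyf2 on the opposite strand, so its reads may belong to either gene. Kcnj3 (GIRK1), a G protein-gated channel reported in vomeronasal neurons together with SK3, had 0.536, 1.66 and 1.38 CPM after pup exposure, against 0, 0.359 and 2.66 CPM after control exposure, and 31.1% of its exon bases overlap the antisense gene Gm26794. Its values were too low and too spread to order the groups. The counting is not stated to use strand, and 7 tested members shared over 10% of exon bases, or of the 50-base words of their transcript, with another gene.

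The log2 fold change was above 0 in 60 tested channel genes and below 0 in 23, with a median of 0.48 beside 0.03 over all genes tested. By class, 21 of 25 voltage-gated potassium alpha subunits were positive, 6 of 7 sodium alpha subunits and 6 of 6 calcium alpha1 subunits, against 51.5% of all genes. The 6 calcium alpha1 genes all had over 8 kb of exon, a range in which 78.0% of all genes were positive. The other classes were not set beside genes of like exon length, and the 51.5% takes no account of length. The calcium- and sodium-activated potassium channels were the only class with a negative median (-0.21, 2 of 6 positive), and the accessory potassium subunits were split 6 to 6. These counts describe the genes that passed the filter on low counts, which keeps a gene that is high in 1 group alone, and they carry no test. The other 48 members with a count had at most 91 reads in all (Kcne1), and 7 had none.

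**Figure D4:**
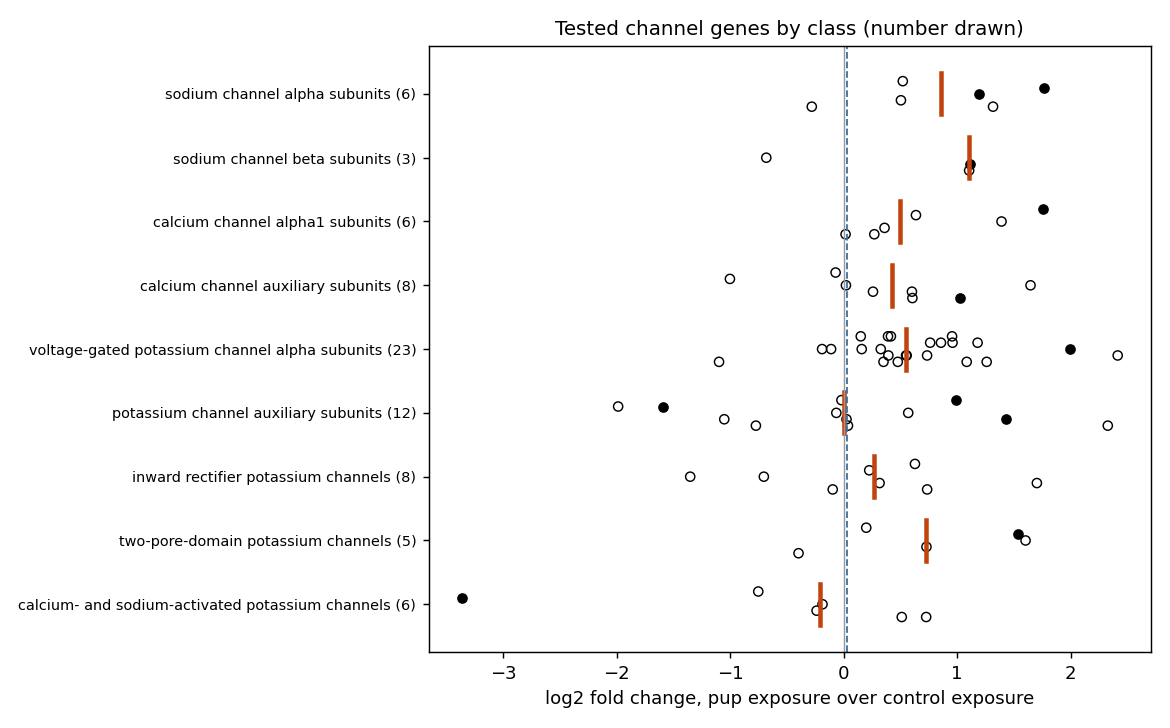
Log2 fold change (pup exposure over control exposure) of each tested channel gene, by class, with the number drawn in brackets; HCN channels and the genes not reported here are not drawn. Filled points have an edgeR unadjusted p under 0.05, orange bars are medians of the points drawn, and the dashed blue line is the median of 0.030 over all genes tested; the filled point farthest to the left is Kcnn3.

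Genes with a greater total exon length had higher log2 fold changes throughout the table, and the tested channel genes had a median of 5407 bases of exon. Exon length here is the summed length of all annotated exons of a gene, merged where they overlap. Over all genes the median log2 fold change was 0.47 for exon lengths of 8 kb and over, where 78.0% were positive, and -0.46 under 2 kb, where 24.4% were. Without pup exposure replicate 2 these medians were 0.28 and -0.25, and without control exposure replicate 3 they were 0.44 and -0.21. Channel genes of 8 kb and over had a median of 0.51 with 23 of 26 positive, near the median of all genes of that length. At 4 to 6 kb the 26 channel genes had a median of 0.54 beside 0.20 over all genes, and at 2 to 4 kb the 19 channel genes had 0.51 beside -0.19. In the other ranges, with few channel genes, the order was the opposite: the 5 under 2 kb had -0.70 beside -0.46, and the 7 at 6 to 8 kb had 0.23 beside 0.35. With each library's trend with exon length removed, an alternative chosen after seeing the data, the median of the channel genes was 0.22 (all genes -0.0042) and edgeR gave an unadjusted p under 0.05 to 6 higher genes, against 3.91% of all genes, and 3 lower, against 4.75%. Kcnn3, Kcnmb1, Scn7a, Kcnk3, Kcnab2, Kcna4 and Kcnmb2 stayed among them, while Scn3a (log2 fold change 0.75), Scn3b (0.85), Cacna1g (1.38) and Cacna2d1 (0.58) did not; Kcna5 and Cacnb2 joined. The part of exon length in the results was not tested beyond this alternative.

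**Figure D5:**
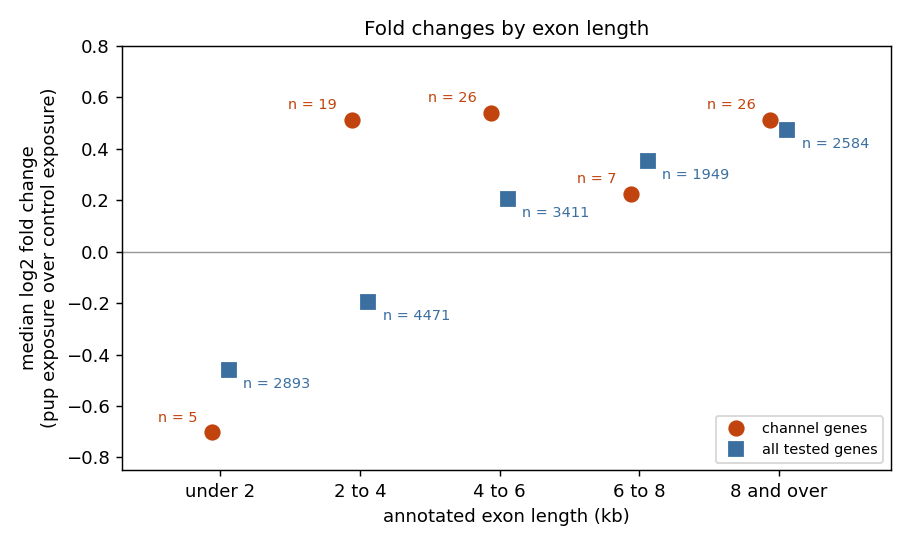
Median log2 fold change (pup exposure over control exposure) of tested channel genes (orange circles) and of all tested genes (blue squares) by annotated exon length in kb, with the number of genes beside each point. Over all genes the median climbs with length, from -0.46 under 2 kb to 0.47 at 8 kb and over, and the points separate most at 2 to 4 kb.

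Total counts were 18199476 to 20871266 after pup exposure and 10590716 to 11240065 after control exposure. Depth and group therefore cannot be told apart by design. With every library thinned to the smallest total, 77 channel genes were tested. Of these, edgeR gave an unadjusted p under 0.05 to 9 higher genes, against 6.29% of all genes, and 3 lower, against 4.94%. Channel genes took 0.104% to 0.195% of the unscaled counts after pup exposure and 0.0539% to 0.131% after control exposure. After TMM scaling their summed level was 1077 to 1443 CPM after pup exposure and 892 to 1198 CPM after control exposure, with overlap. The number of members with a read was 93, 109 and 115 after pup exposure and 89, 118 and 85 after control exposure, and 89, 106 and 111 after pup exposure once every library was thinned to the smallest total. Pup exposure replicate 1 stood apart in several members, holding the highest Scn3a, Kcna4, Cacna1g and Kcnma1 and the lowest Kcnh7.

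Markers of mature vomeronasal neurons (5 of 6 listed genes matched a row and were tested, 3 of them above 0 on the log2 fold change scale) summed to 1201 to 1514 CPM after pup exposure and 1379 to 1476 CPM after control exposure, with overlap. The listed gene without a row was Trpc2. Omp, which is not confined to vomeronasal neurons, was at 782, 664 and 831 CPM after pup exposure, against 922, 906 and 768 CPM after control exposure. Smooth muscle and pericyte markers summed to 1070 to 1271 CPM after pup exposure and 1059 to 1545 CPM after control exposure, also overlapping, beside the lower Kcnmb1. Of these 7 genes 6 were tested, 3 above and 3 below 0, Tagln had every pup library above every control library, and Des was at 0 or near it. Endothelial markers, from a cell type in which SK3 also occurs, summed to 20.02 to 39.8 CPM after pup exposure and 8.31 to 22.8 CPM after control exposure, overlapping, beside the lower Kcnn3; all 6 had a log2 fold change above 0, and the level of Cdh5, which defines the type, was at most 1.66 CPM in any library. Glial markers summed to 115 to 119.5 CPM after pup exposure and 108 to 140.3 CPM after control exposure, overlapping, beside the higher Scn7a; 2 of 6 were above 0. Markers of progenitors and immature neurons, beside Scn3a, summed to 352 to 582 CPM after pup exposure and 434 to 904 CPM after control exposure, with 0 of 6 tested genes above 0. Sustentacular markers did not overlap, at 1547 to 2276 CPM after pup exposure and 3851 to 4474 CPM after control exposure, with 0 of 5 above 0. Gland markers, 2 of 9 above 0, summed to 190793 to 460606 CPM after pup exposure and 277943 to 908618 CPM after control exposure, far above every other marker list in each library. TMM factors ran from 0.605 in control exposure replicate 3 to 1.39 in pup exposure replicate 2, so these CPM are not shares of a library's reads. Macrophage markers summed to 41.4 to 61.4 CPM after pup exposure and 77.4 to 88.7 CPM after control exposure, with 1 of 5 above 0; the sums lay apart, but of the single genes only Cd68 did. Red blood cell markers summed to 52.6 to 168 CPM after pup exposure and 205 to 591 CPM after control exposure, also apart, with 0 of 4 tested genes above 0 and 3 of the 5 listed apart. Main olfactory neuron markers summed to 31.3 to 54.3 CPM after pup exposure and 26.4 to 56.8 CPM after control exposure, overlapping, with 3 of 5 above 0. Of these only Cngb1 had every pup library above every control library. The part of these cell types in the channel results was not tested. In bulk RNA, fewer cells of a type and less RNA per cell cannot be told apart.

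Among 38 listed partners of these channels outside the symbol rule, 28 were tested and 0 passed in edgeR; the unadjusted p was under 0.05 in 2 higher genes and 0 lower, against 6.31% and 4.67% of all genes, with a median log2 fold change of 0.21. Amigo1, a neuronal adhesion protein, had 26.01, 23.8 and 14.1 CPM after pup exposure, against 7.53, 8.70 and 7.81 CPM after control exposure (log2 fold change 1.41, SE 0.42, edgeR unadjusted p = 0.00576, adjusted p = 0.395). Ano2, a calcium-activated chloride channel of vomeronasal and olfactory neurons, had 31.9, 48.7 and 38.8 CPM after pup exposure, against 17.8, 20.9 and 18.3 CPM after control exposure (log2 fold change 1.07, SE 0.36, edgeR unadjusted p = 0.0111, adjusted p = 0.421). Ano1, its relative in the same neurons and in glands, had 74.4, 93.9 and 83.9 CPM after pup exposure, against 62.8, 43.4 and 50.8 CPM after control exposure (log2 fold change 0.68, SE 0.35, edgeR adjusted p = 0.486). In these 3 genes every pup library was above every control library. Of the 28 tested partners, 4 lay wholly above and 1 wholly below the control libraries, against 10.1% and 9.6% of all genes. The log2 fold change was below 0 in 11 of the 28.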

How the data were processed

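The authors deposited whole-number read counts per Ensembl gene for 6 libraries, not normalized; GRCm38 is the build listed per the submitters' processing notes, and the name of any aligner or counter was not given in the sources used here. Per the labels' protocols, ribosomes were immunoprecipitated through phosphorylated S6. No input library was analysed here.

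Gene IDs were named from GENCODE M21 (36723 of 38561 matched), which also gave exon lengths. The whole table was fitted with edgeR 4.0.16 (R 4.3.3): filterByExpr (minimum count 10, minimum total 15), TMM scaling, quasi-likelihood test of pup exposure over control exposure, Benjamini-Hochberg adjustment over all genes, threshold 0.05, common biological coefficient of variation 0.535. A standard error is the log2 fold change divided by the square root of F. Alternatives were DESeq2 1.42.0, limma-voom (limma 3.58.1), RLE scaling, library totals, no filter and a stricter one, the replicate number as a block, thinning to the smallest total, each library left out and, added after seeing the data, removal of the trend with exon length. Start-site windows came from RefSeq. No library was a duplicate: the chi-square of each pair within a group was at least 86.2 times its degrees of freedom.

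Named genes were the 8 with the smallest p in each direction, the 2 most abundant tested genes per kb in each class, and genes recalled from work on vomeronasal neurons; others were named after their values were seen. The members, lists and rule were chosen with earlier results of these data known. A few channel genes and partners are not reported here by name, although counts over the channel genes include them.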

Additional observations from a re-analysis of the deposited data

How the results depend on the processing

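The count of channel genes past an adjusted p of 0.05 was 0 higher in all 15 alternatives, and 0 lower except in edgeR without a filter on low counts (1, Kcnn3) and DESeq2 (2). At an unadjusted p under 0.05, limma-voom gave 6 higher and 4 lower of 83 channel genes (all genes 5.1% and 5.43%). DESeq2 gave 12 and 4 of 131 (4.85% and 4.69%). The fit without the exon length trend, chosen after seeing the data, gave 6 and 3 of 83 (3.91% and 4.75%). With single libraries left out, 83 to 91 channel genes were tested and both adjusted counts were 0. The higher count ran from 4 to 10 and the lower count from 2 to 3, while the median log2 fold change ran from 0.31 to 0.55. That median was 0.79 with library totals only (all genes 0.31), 0.32 in DESeq2 and 0.22 without the exon length trend. With library totals only, then, the median of all genes moved by over 0.1, and the channel genes remained above it. With the replicate number as a block the counts were 8 higher and 2 lower (5.17% and 4.36%), with a median of 0.45. The correlation of same-numbered libraries in their deviations from the group means was -0.035, 0.18 and 0.075, so the numbers were not taken to pair the libraries.

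Of 505 fold changes of named genes over the alternatives, 25 were reversed. Cacna1h, at 0.017, was -0.030 with RLE scaling, -0.018 in DESeq2, -0.014 in limma-voom, -0.068 with the block and -0.43 without the length trend. Kcnh7 was -0.51 in limma-voom, -0.53 with the block and -0.11 without the length trend, and Cacna1b -0.098 without the length trend. With library totals only Cacnb3 was 0.12 and Kcnq1 0.15. With single libraries left out, sign changes were among Scn9a (-0.65 to 0.28), Cacna1b (-0.20 to 0.75), Cacna1h (-0.34 to 0.28), Cacnb3 (-0.33 to 0.11), Kcnq1 (-0.37 to 0.13), Kcnj3 (-0.29 to 2.70), Kcnh6 (-0.17 to 0.36) and Kcnh7 (-0.31 to 0.92). The control libraries were the shallower ones, so depth and group cannot be told apart by design. The cause of these sign changes was not tested.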

Other observations

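The balance between related subunits was looked at after their values were seen and carries no test. The ratio of Kcnmb2 to Kcnmb1, the inactivating and the smooth muscle type beta subunit of the BK channel, both per kb of exon, was 3.52, 12.4 and 5.07 after pup exposure, against 0.880, 1.48 and 0.605 after control exposure, with no overlap. Both genes were at an edgeR unadjusted p under 0.05 in opposite directions in these libraries, so this ratio restates their differences. The ratio of Scn3a to Scn9a, the Nav1.3 and Nav1.7 sodium channels, was 1.82, 0.727 and 0.749 after pup exposure, against 0.267, 0.420 and 0.912 after control exposure. Here control exposure replicate 3 lay within the pup range.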
